A study of Mus musculus with 6 samples.

Results

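The genes described here are 43 genes of hepatic stellate cells and of the extracellular matrix, chosen by name. A gene was measured by the probe sets annotated to its symbol alone, and the brightest of them by its 6-array mean stood for the gene. Of the 43 genes, 41 were measured, by 86 probe sets, out of 18193 named genes on the array, and 40 were bright enough to be tested among 12598 genes. Tnc lay below the filter on dim probe sets, the probe sets of Loxl2 carry a second gene symbol, and Fbn1 was not analysed here. Liver RNA came from 6 male mice with 1 Affymetrix array each. WT was 3 wild-type mice, and ChLO was 3 liver-specific Chrebp knockout mice, made by crossing floxed Chrebp mice with mice that carry Cre under the albumin promoter. All 6 mice were 12 weeks old when they went onto a diet of 60% sucrose, which they ate for 1 week. Chrebp, now named Mlxipl, encodes a transcription factor that carbohydrate activates, and the comparison asks what its loss does to liver transcripts under a sucrose load. The albumin promoter is active in hepatocytes, so the knockout is aimed at hepatocytes and not at the cells that make most of the matrix. Whether bile duct cells also lost the gene was not tested. The labels do not say whether the wild-type mice were littermates or carried floxed alleles.

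Stellate cells lie between the hepatocytes and the sinusoids. At rest they store vitamin A as retinyl esters, carry reelin and release hepatocyte growth factor. When the liver is injured, TGF-beta and PDGF drive them to become myofibroblasts, which contain smooth muscle actin and lay down collagens I, III and V with the enzymes that cross-link them. Basement membrane proteins also come from sinusoidal endothelium and bile ducts, and hepatocytes themselves secrete some matrix proteins, plasma fibronectin among them. In bulk liver RNA, fewer cells of a type and less RNA per cell cannot be told apart.

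Promoters are shown for 4 genes that stand for the contrast below. Col1a2, Col3a1 and Vim are genes of activated stellate cells and Reln is one of resting cells. Each sequence is the 250 bases before the start site in RefSeq, build GRCm38.p6, 5′ to 3′ along the gene, and none of these windows overlaps a RefSeq gene. Capitals mark the CCAAT box, the TATAAA box and, in Reln, the E-box CACGTG, which forms part of the element that ChREBP binds. All were searched on both strands, so that the ATTGG in Vim is a CCAAT box read on the other strand. Col1a2 is at chr6:4505368-4505617 (+), Col3a1 at chr1:45311288-45311537 (+), Vim at chr2:13574061-13574310 (+) and Reln at chr5:22344706-22344955 (-).
Col1a2: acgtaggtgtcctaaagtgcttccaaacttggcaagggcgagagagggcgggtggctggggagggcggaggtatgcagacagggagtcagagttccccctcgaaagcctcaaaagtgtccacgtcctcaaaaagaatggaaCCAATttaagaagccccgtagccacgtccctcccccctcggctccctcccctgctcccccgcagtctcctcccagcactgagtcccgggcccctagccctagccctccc
Col3a1: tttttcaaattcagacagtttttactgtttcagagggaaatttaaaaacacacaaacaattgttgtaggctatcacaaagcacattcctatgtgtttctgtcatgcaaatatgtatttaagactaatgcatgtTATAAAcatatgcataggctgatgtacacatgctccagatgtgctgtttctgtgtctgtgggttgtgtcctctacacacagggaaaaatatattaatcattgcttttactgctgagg
Vim: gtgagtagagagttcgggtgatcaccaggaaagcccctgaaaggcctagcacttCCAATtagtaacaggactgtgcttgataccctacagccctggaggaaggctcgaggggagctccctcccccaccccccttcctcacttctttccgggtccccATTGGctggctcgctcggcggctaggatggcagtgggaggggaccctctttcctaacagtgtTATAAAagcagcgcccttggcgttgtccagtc
Reln: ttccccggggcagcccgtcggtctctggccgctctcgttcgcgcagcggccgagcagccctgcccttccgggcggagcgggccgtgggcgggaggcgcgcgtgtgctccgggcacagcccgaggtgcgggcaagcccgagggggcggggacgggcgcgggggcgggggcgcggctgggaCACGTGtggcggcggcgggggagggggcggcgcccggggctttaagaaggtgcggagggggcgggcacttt

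The promoter table held 28 of the 43 genes, with 33 windows in all. CCAAT was in 9 of the 33 windows, or 27.3%, against 33.8% of the 32851 windows of all genes. TATAAA was in 7 of 33, or 21.2%, against 12.4%. CACGTG was in 1 of 33, that of Reln, or 3.03%, against 6.02%. These are matches of letters in a window of 250 bases and say nothing of whether a factor binds there.

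Signals are given on the log2 scale, on which a difference of 1 is a doubling. Array medians lay between 6.38 and 6.60, and arrays correlated with each other at 0.894 to 0.954 over the genes tested. Mlxipl, the deleted gene, read 12.61, 12.56 and 12.59 in WT 1, 2 and 3 and 10.34, 11.22 and 11.48 in ChLO 1, 2 and 3. Every ChLO array lay below every WT array, with a difference of -1.57 (SE 0.28, limma adjusted p = 0.185). Whether its probe set lies in the deleted part is not stated in the sources used here. The third ChLO array stood apart for the genes described here, since most of them read high in ChLO 1 and ChLO 2 and at the WT level in ChLO 3. The counts, and the genes and lists whose values this array moved most, are given with and without it. Over all 12598 genes limma called 0 at an adjusted p under 0.05, a background of 0%, and none of the 40 genes was called. Without adjustment, 1129 genes had a p under 0.05.

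Most matrix genes had a higher mean signal in ChLO livers, from high values in 2 of the 3 ChLO mice. Of the 40 genes tested, 35 were higher in ChLO and 5 were lower, with a median difference of 0.73, against 0.06 and 56.5% higher over all genes tested. Lox, 1 of the 35, passed the filter through ChLO alone, so its difference had to be positive. Scaled to the spike-in controls, 37 were higher and 3 lower, with Efemp1 and Thbs2 changing sides. Above every WT array were 30 of the 40 in ChLO 1, 34 in ChLO 2 and 2 in ChLO 3, where the shares over all genes were 38.8%, 31.5% and 31%. Of the 40, 28 were above every WT array in both ChLO 1 and ChLO 2, against 23.3% of all genes, and 26 of these 28 were not in ChLO 3. Lox is among the 28 and the 26. In ChLO 3, 9 genes read below every WT array, close to the 24% of all genes. At an unadjusted p under 0.05, 10 of the 40 were higher (25%, against 5.46% of all genes) and 2 were lower (5%, against 3.5%). The count of 10 was 24 without ChLO 3, 5 without WT 2, 4 without WT 3, 2 without ChLO 1 and 1 without ChLO 2. Groups that did not overlap at all were found for 2 genes with ChLO higher, Col5a2 and Mgp, and for 2 with ChLO lower, Col18a1 and Fn1. Each of these counts is 5% of the 40, under the 9.04% and 6.19% of all genes, so a clean separation of the groups was not more common here than elsewhere on the array.

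Without ChLO 3, limma called 201 genes higher (1.6%) and 101 lower (0.802%) over all genes at an adjusted p under 0.05. Of the 40, 13 were called higher (32.5%) and 0 were called lower. The 13 were Col1a1, Col1a2, Col5a1, Col5a2, Col6a3, Col4a1, Nid1, Sparc, Postn, Acta2, Tagln, Vim and Pdgfrb. Leaving out any other array gave 0 calls among the 40. ChLO 3 was singled out on the values of these same genes. The 13 calls therefore describe the remaining arrays and are not a test of the genes. The differences given below without ChLO 3 are descriptions in the same way. The median difference of the 40 was 1.06 without ChLO 3, 0.55 without ChLO 2 and 0.59 without ChLO 1.

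**Figure D1:**
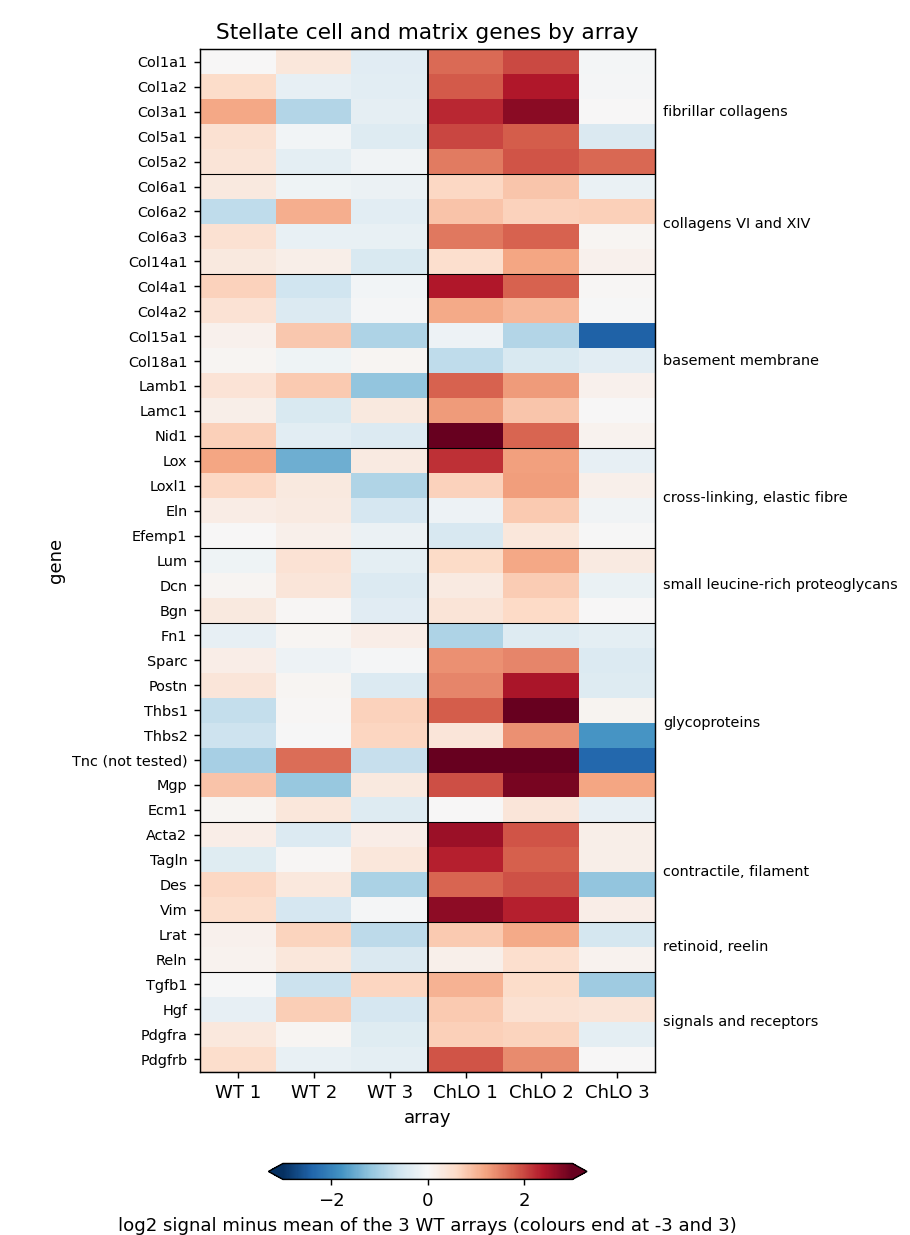
Log2 signal of 41 genes (rows, grouped by role) on each of the 6 arrays (columns), as the difference from the mean of the 3 WT arrays; red is higher and blue is lower, and colours end at -3 and 3. ChLO 1 and ChLO 2 are red for most genes, while ChLO 3 is near white except for a few, such as Col5a2 and Mgp in red and Col15a1 and Thbs2 in blue.

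Fibrillar collagens form the tensile fibres of scar. All 5 were higher in ChLO, with a median difference of 1.41, and 2 had an unadjusted p under 0.05, against 5.46% of all genes. Col1a1 and Col1a2 encode the chains of collagen I. Col1a1 read 6.58, 6.91 and 6.23 in WT and 8.27, 8.55 and 6.51 in ChLO, and Col1a2 read 9.86, 9.07 and 9.01 in WT and 11.16, 11.73 and 9.28 in ChLO. For both, ChLO 1 and ChLO 2 lay above every WT array and ChLO 3 inside the WT range. The difference was 1.20 (SE 0.54, unadjusted p = 0.0581) for Col1a1 and 1.41 (SE 0.58, unadjusted p = 0.0423) for Col1a2. Without ChLO 3 it was 1.84 and 2.13, and without ChLO 2 it was 0.82 and 0.91. Col3a1, the chain of collagen III, read 11.24, 9.20 and 9.83 in WT and 12.34, 12.79 and 10.11 in ChLO. WT 1 was the highest of the WT arrays and lay above ChLO 3. The difference was 1.66 (SE 0.75), or 2.48 without ChLO 3 and 1.13 without ChLO 2.

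Col5a2, a chain of the collagen V that seeds collagen I fibres, was the exception. It read 8.29, 7.61 and 7.79 in WT and 9.45, 9.78 and 9.61 in ChLO, so ChLO 3 was as high as the other ChLO arrays. Its difference was 1.72 (SE 0.24), 3.29-fold, with a limma adjusted p of 0.0977 over all genes, the smallest among the 40. A further probe set of Col5a2 gave 5.25, 4.44 and 4.65 in WT and 6.66, 6.88 and 6.74 in ChLO, but its WT mean of 4.78 is under the filter level, so it passed through ChLO alone and is given as a description. Its partner chain Col5a1 did not do the same on the probe set used. That probe set read 7.47, 6.95 and 6.64 in WT and 9.02, 8.84 and 6.58 in ChLO. The difference was 1.13 (SE 0.63), or 1.91 without ChLO 3 and 0.69 without ChLO 1. A further probe set of Col5a1, nearly as bright, read 6.69, 7.22 and 7.09 in WT and 8.32, 8.51 and 7.43 in ChLO. On that probe set ChLO 3 was above every WT array. Col3a1 lies next to Col5a2 on chromosome 1, with no other protein-coding gene between them in RefSeq, yet Col3a1 in ChLO 3 read 10.11, inside its WT range.

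Collagens VI and XIV connect fibres to cells and to each other. All 4 genes were higher in ChLO, with a median of 0.68, and 1 had an unadjusted p under 0.05, against 5.46% of all genes. That gene was Col6a3, reading 8.55, 7.89 and 7.88 in WT and 9.69, 9.88 and 8.17 in ChLO, a difference of 1.14 (SE 0.46), or 1.68 without ChLO 3. Col6a1 differed by 0.42 (SE 0.33) and Col14a1 by 0.61 (SE 0.32), and without ChLO 3 Col6a1 differed by 0.73. Col6a2 read 6.73, 8.59 and 7.19 in WT and 8.36, 8.19 and 8.21 in ChLO. The ChLO arrays agreed closely for Col6a2, but WT 2 was above all of them.

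Basement membrane genes split. Of 7 genes, 5 were higher and 2 lower, with a median of 0.71. Col4a1 and Col4a2 encode the chains of collagen IV and are neighbours on chromosome 8. Col4a1 read 9.61, 8.31 and 8.83 in WT and 11.32, 10.69 and 8.96 in ChLO, a difference of 1.41 (SE 0.59), and Col4a2 differed by 0.71 (SE 0.35). Without ChLO 3 these were 2.09 and 1.07, and without ChLO 1 they were 0.91 and 0.49. Nid1, nidogen, which links laminin to collagen IV, read 10.16, 9.13 and 9.03 in WT and 12.60, 11.20 and 9.55 in ChLO. Its difference of 1.68 (SE 0.70) was 3.20-fold, and ChLO 1 stood 3.16 above the WT mean. The difference was 2.46 without ChLO 3 and 0.93 without ChLO 1. The laminin chains Lamb1 and Lamc1 differed by 1.06 (SE 0.61) and 0.71 (SE 0.38), with ChLO 1 and ChLO 2 above every WT array for both.

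The 2 basement membrane genes that were lower are collagens with endostatin-like ends. Col18a1, which hepatocytes also express, read 13.06, 12.89 and 13.07 in WT and 12.25, 12.54 and 12.69 in ChLO. All 3 ChLO arrays lay below all WT arrays, with a difference of -0.51 (SE 0.17, unadjusted p = 0.0187, limma adjusted p = 0.481). Col15a1 read 6.83, 7.51 and 5.78 in WT and 6.55, 5.82 and 4.28 in ChLO. The groups overlapped, and its difference of -1.15 had an SE of 0.71 and was -0.52 without ChLO 3.

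Enzymes that cross-link collagen and elastin, and proteins of elastic fibres, differed little beyond their spread. Of 4 genes tested, 3 were higher and 0 had an unadjusted p under 0.05. Over all genes, 5.46% were higher and 3.5% lower at that p, so 0 of 4 is near those shares. Lox, lysyl oxidase, read 6.19, 3.53 and 5.26 in WT and 7.18, 6.23 and 4.75 in ChLO, near the filter level of 5.50. It was the 1 gene of the 40 that passed the filter through ChLO alone, and its difference of 1.06 had an SE of 0.89 and was 1.71 without ChLO 3. Loxl1, a related enzyme, differed by 0.69 (SE 0.50). Eln, elastin, differed by 0.18 (SE 0.39), and Efemp1, the fibulin that binds elastic fibres, by -0.05 (SE 0.25), with a 95% interval of -0.62 to 0.52.

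The small leucine-rich proteoglycans, which coat collagen fibres, were slightly higher, with a median of 0.33 over 3 genes. Lum, lumican, read 9.48, 10.04 and 9.32 in WT and 10.19, 10.76 and 9.89 in ChLO, a difference of 0.67 (SE 0.29, unadjusted p = 0.0477). Bgn, biglycan, differed by 0.33 (SE 0.23) and Dcn, decorin, by 0.28 (SE 0.29). Dcn and Lum are neighbours on chromosome 10. A dimmer probe set of Dcn, with a mean of 5.99, gave -0.62, opposite in sign to the 1 used.

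Among secreted glycoproteins, 5 of 7 genes tested were higher, with a median of 0.80. Sparc, a collagen-binding protein of remodelling matrix, read 10.82, 10.49 and 10.59 in WT and 12.01, 12.09 and 10.22 in ChLO. The WT arrays agreed closely for Sparc and ChLO 3 lay below all of them. The difference was 0.80 (SE 0.46) over all arrays, 1.41 without ChLO 3 and 0.48 without ChLO 2. Postn, periostin, read 8.75, 8.44 and 7.98 in WT and 9.85, 10.85 and 8.00 in ChLO. Thbs1, thrombospondin 1, which activates latent TGF-beta, read 5.02, 5.75 and 6.41 in WT and 7.56, 9.09 and 5.82 in ChLO. Postn differed by 1.18 (SE 0.64) and Thbs1 by 1.76 (SE 0.80). Without ChLO 3 they differed by 1.96 and 2.59, and without ChLO 2 by 0.54 and 0.96.

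Mgp, matrix Gla protein, which holds back calcification, had the largest difference of the 40 over all 6 arrays, though not without ChLO 3, where Thbs1, Vim, Col3a1 and Nid1 exceeded its 2.39. It read 6.88, 4.88 and 6.32 in WT and 7.97, 8.87 and 7.22 in ChLO. All 3 ChLO arrays were above all WT arrays, with a difference of 1.99 (SE 0.61), 3.98-fold, an unadjusted p of 0.0116 and a limma adjusted p of 0.455. WT 2 lay below the filter level for this gene. Tnc, tenascin C, a protein of wound matrix, was not tested because its mean lay below the filter level. It read 2.74, 5.42 and 3.05 in WT and 7.71, 8.20 and 1.38 in ChLO, so that ChLO 1 and ChLO 2 were the 2 arrays in which it passed that level.

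Fn1, Thbs2 and Ecm1 did not follow. Fn1, fibronectin, read 14.26, 14.56 and 14.71 in WT and 13.59, 14.11 and 14.22 in ChLO. All ChLO arrays were below all WT arrays, with a difference of -0.54 (SE 0.23, unadjusted p = 0.0454), and its further probe set gave -0.45. With scaling to the spike-in controls the difference was -0.28 for Fn1 and -0.26 for Col18a1. Thbs2, thrombospondin 2, differed by -0.01 (SE 0.82), with ChLO arrays at 6.28, 7.30 and 4.16, and by 0.86 without ChLO 3. Ecm1, extracellular matrix protein 1, which keeps TGF-beta latent in the resting liver, differed by 0.04 (SE 0.25), with a 95% interval of -0.53 to 0.61.

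The contractile and filament genes had a median of 1.49, with 4 of 4 higher and 3 at an unadjusted p under 0.05, against 5.46% of all genes. Acta2, smooth muscle actin, read 8.30, 7.70 and 8.30 in WT and 10.66, 9.98 and 8.27 in ChLO. Tagln, the actin-binding protein SM22, read 7.11, 7.50 and 7.81 in WT and 9.81, 9.27 and 7.65 in ChLO. Vim, vimentin, an intermediate filament of mesenchymal cells, read 10.11, 9.07 and 9.55 in WT and 12.25, 11.91 and 9.78 in ChLO. For these 3 genes ChLO 1 was the highest array, ChLO 2 the next and ChLO 3 inside the WT range. The differences were 1.54 (SE 0.56) for Acta2, 1.44 (SE 0.52) for Tagln and 1.74 (SE 0.61) for Vim. Without ChLO 3 they were 2.22, 2.06 and 2.51, and without ChLO 1 they were 1.02, 0.99 and 1.27. Desmin, Des, the filament of resting and activated stellate cells alike, read 7.30, 6.99 and 5.73 in WT and 8.43, 8.58 and 5.50 in ChLO, a difference of 0.83 (SE 0.84) that was 1.83 without ChLO 3 and 0.29 without ChLO 2.

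Genes of growth signals were less clear. Pdgfrb, the PDGF receptor of activated stellate cells, read 8.79, 8.04 and 7.96 in WT and 10.15, 9.68 and 8.27 in ChLO. The difference was 1.10 (SE 0.48, unadjusted p = 0.0502), or 1.65 without ChLO 3 and 0.71 without ChLO 1. A dimmer further probe set of Pdgfrb read 6.49, 6.02 and 6.57 in WT and 7.95, 7.54 and 7.27 in ChLO. On that probe set ChLO 3 was above every WT array, and the difference was 1.23. Pdgfra, the receptor also present on resting stellate cells, differed by 0.36 (SE 0.35), or by 0.68 without ChLO 3. Tgfb1 read 6.19, 5.57 and 6.86 in WT and 7.25, 6.77 and 5.14 in ChLO. Its difference was 0.18 (SE 0.64), and its other probe set gave -0.38, so no direction can be given for it. Hgf, hepatocyte growth factor, read 6.78, 7.78 and 6.54 in WT and 7.83, 7.50 and 7.43 in ChLO, a difference of 0.55 (SE 0.38).

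**Figure D2:**
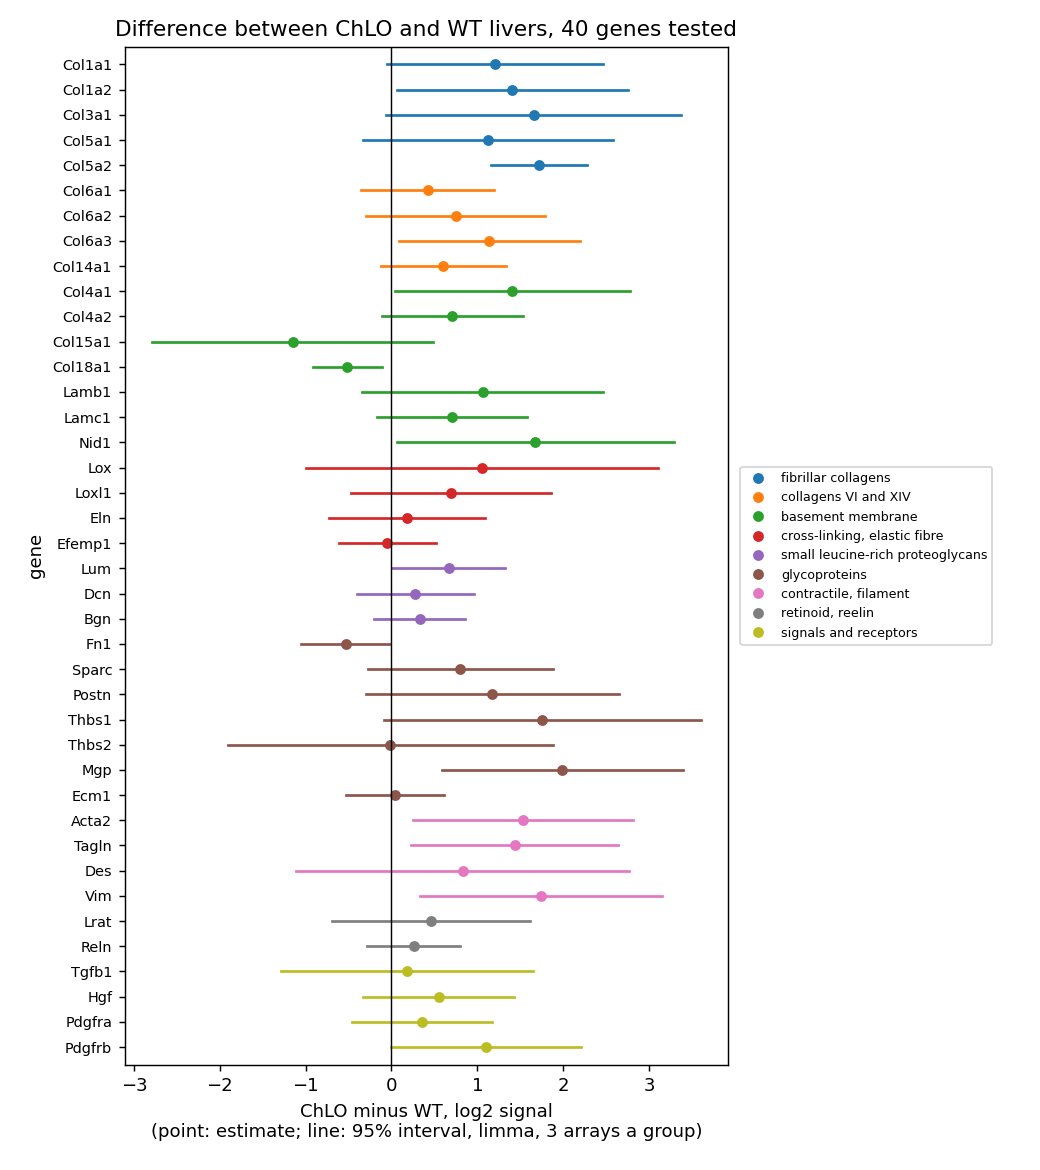
Difference between ChLO and WT in log2 signal (horizontal axis) for each of the 40 genes tested (vertical axis, coloured by role), with the 95% interval from limma as a line. The intervals of 10 genes, among them Col5a2, Mgp, Vim, Acta2 and Tagln, lie wholly above 0 and those of Col18a1 and Fn1 wholly below it, while the others cross 0.

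The markers of resting stellate cells were then set beside those of activated cells. The activated list held 15 genes tested, of which 14 were higher with a median of 1.18. Lox, 1 of the 14, passed the filter through ChLO alone, so its difference had to be positive. Of the 15, 6 were higher at an unadjusted p under 0.05, against 5.46% of all genes. The resting list held Lrat, Reln, Hgf, Ecm1 and Des, of which 5 of 5 were higher with a median of 0.46 and 0 had an unadjusted p under 0.05. In so short a list, 0 is near the shares of all genes, 5.46% higher and 3.5% lower. Des, which activated cells also express, had the highest values of this list in ChLO 1 and ChLO 2, and without it the median was 0.36. Lrat, the enzyme that makes retinyl esters for storage, read 9.43, 9.98 and 8.51 in WT and 10.08, 10.45 and 8.77 in ChLO, a difference of 0.46 (SE 0.50) that was 0.96 without ChLO 3. Reln, reelin, read 11.40, 11.64 and 10.86 in WT and 11.45, 11.81 and 11.41 in ChLO, a difference of 0.26 (SE 0.23) with a 95% interval of -0.28 to 0.80. Neither gene was lower in the ChLO arrays where Acta2 and Col1a2 were high.

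By array, the median of the activated list stood 1.70, 1.81 and -0.03 above the WT mean in ChLO 1, 2 and 3 and 0.40, -0.22 and -0.11 in WT 1, 2 and 3. The median of the resting list stood at 0.77, 0.51 and -0.26 for the ChLO arrays and at 0.10, 0.34 and -0.49 for the WT arrays. Without Des it stood at 0.46, 0.49 and -0.07 for the ChLO arrays and at 0.08, 0.51 and -0.47 for the WT arrays, so WT 2 was then the highest. Within an array, where scaling cancels, the activated median exceeded the resting median by 0.92 in ChLO 1 and 1.30 in ChLO 2, but by 0.22 in ChLO 3, and by 0.29, -0.56 and 0.39 in the WT arrays. ChLO 1 and ChLO 2 were thus above every WT array in this contrast and ChLO 3 was between them. The median difference of the activated list was 1.84 without ChLO 3. That of the resting list was 0.06 without WT 3, 0.13 without ChLO 2 and 0.80 without WT 2. The 2 lists were chosen with earlier results of these data known, and their difference was not tested.

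**Figure D3:**
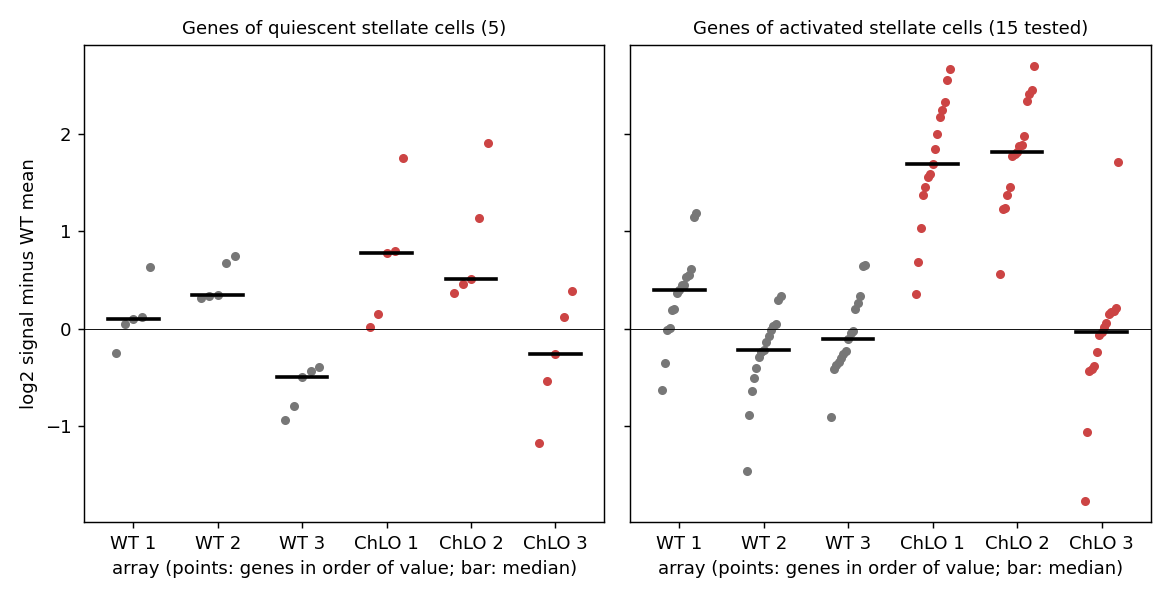
Log2 signal minus the WT mean (vertical axis) of each gene of resting (left) and activated (right) stellate cells on each array, as points in order of value, with the median as a bar. The activated bars stand at 1.70 and 1.81 in ChLO 1 and ChLO 2 and at -0.03 in ChLO 3, and the resting bars at 0.77, 0.51 and -0.26.

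Further probe sets of the same genes give a second reading from the same RNA. For 22 of the genes, 26 further probe sets passed the filter, and 24 of them had the same sign as the probe set used. The exceptions were those of Dcn and Tgfb1. Of the 26, 5 passed the filter through ChLO alone, those of Col1a1 (2.13), Col1a2 (2.98), Col5a2 (1.98), Col6a2 (1.99) and Thbs1 (1.63), so their differences had to be positive, and 1 of Thbs2 (-0.81) passed through WT alone. Among the others, Col3a1 had a larger difference, 2.16, and nearly equal ones were seen for Nid1 (1.67) and Vim (1.66 and 1.57). For Col4a1 the further probe set gave a smaller difference, 0.81. In ChLO 3, some further probe sets read above every WT array though the probe sets used did not. Those of Col5a1 and Pdgfrb were among them.

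**Figure D4:**
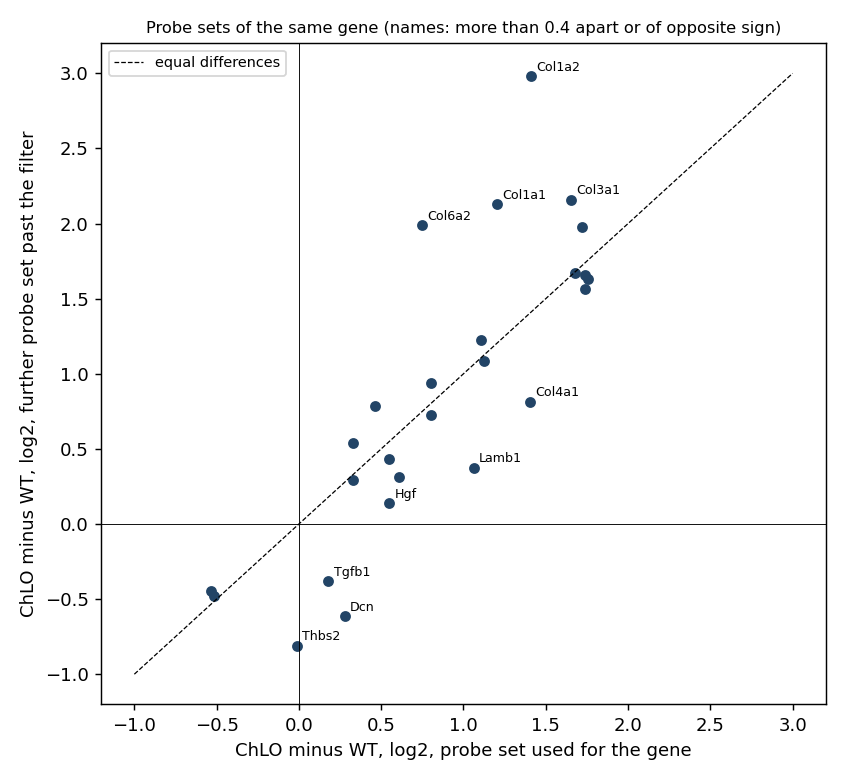
Difference between ChLO and WT in log2 signal on 26 further probe sets (vertical axis) against the probe set used for the same gene (horizontal axis), with equal differences as a dashed line. Points of Dcn and Tgfb1 lie on opposite sides of 0 on the 2 axes, and the points of Col1a2, Col1a1 and Col3a1 lie above the dashed line.

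Other genes of the same pathways were then read. In the list of TGF-beta and PDGF signalling, 18 of 19 genes tested were higher with a median of 0.35, against 56.5% of all genes higher. Of the 19, 1 was higher at an unadjusted p under 0.05, a share near the 5.46% of all genes. That gene was Ccn2, a matricellular target of TGF-beta, reading 8.90, 8.93 and 9.29 in WT and 10.82, 11.63 and 9.03 in ChLO, a difference of 1.45 (SE 0.58), or 2.19 without ChLO 3. Pdgfc, a PDGF ligand, differed by 0.90 (SE 0.45), Bambi, a decoy receptor for TGF-beta, by 0.50 (SE 0.28), and Smad3, which carries the TGF-beta signal to the nucleus, by 0.32 (SE 0.19). Of 12 genes that fold and trim collagen, 7 were higher, with a median of 0.10. At an unadjusted p under 0.05, 0 were higher and 1 lower, against 5.46% and 3.5% of all genes. The ChLO arrays differed in this list, with medians of 0.60, 0.34 and -0.55 above the WT mean, and 10 of the 12 were below every WT array in ChLO 3, against 24% of all genes. Without ChLO 3, 8 of 12 were higher, with a median of 0.47. Serpinh1, the collagen chaperone HSP47, read 8.69, 8.39 and 8.41 in WT and 9.89, 10.36 and 8.04 in ChLO, so ChLO 1 and ChLO 2 were above every WT array and ChLO 3 below every one. Its difference was 0.93 (SE 0.54), or 1.63 without ChLO 3. Bmp1, the protease that cuts procollagen, read lower in all ChLO arrays, by 0.63 (SE 0.20), as did P4hb, a subunit of prolyl hydroxylase and a general folding enzyme, by 0.41 (SE 0.18), and Colgalt1, a collagen galactosyltransferase, was higher by 0.54 (SE 0.29).

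Markers of stellate cells outside the 43 genes were not high as a list. Of 8 tested, 2 were higher and 6 lower, with a median of -0.12 and 0 at an unadjusted p under 0.05. Over all genes, 5.46% were higher and 3.5% lower at that p, so 0 in a list this short is near those shares. Without ChLO 3, 5 were higher and 3 lower, with a median of 0.04. Their median by array was -0.12 for ChLO 1, 0.12 for ChLO 2 and -0.41 for ChLO 3, and the WT arrays gave 0.14, 0.17 and -0.42. Adamtsl2, a secreted regulator of microfibrils, differed by -0.42 (SE 0.39), Angptl6 by -0.22 (SE 0.23), Lhx2, a transcription factor that holds stellate cells at rest, by -0.36 (SE 0.41), and Hand2, a transcription factor of mesenchymal cells, by 0.20 (SE 0.31). These 4 had the smallest p of their list. Portal fibroblast and mesothelial markers were mostly dim, and 2 of 4 tested were higher with 0 at an unadjusted p under 0.05. Among them Cd34 differed by 0.57 (SE 0.55), Fbln2 by 0.56 (SE 0.60), Entpd2 by -0.23 (SE 0.30) and Thy1 by -0.47 (SE 0.76). Of smooth muscle and pericyte markers, 3 of 3 tested were higher with 0 at an unadjusted p under 0.05. Smtn was higher by 1.14 (SE 0.54), Notch3 by 0.39 (SE 0.31) and Rgs5 by 0.26 (SE 0.27). Myh11, Cnn1, Actg2 and Lmod1 were below the filter level. A count of 0 in lists this short is again near the shares of all genes.

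Markers of infiltrating myeloid cells read high in the same arrays as the activated genes. All 7 tested, of 10 listed, were above every WT array in ChLO 1 and in ChLO 2 and none was in ChLO 3. Of all genes, 23.3% were above every WT array in both ChLO 1 and ChLO 2. Gpnmb, 1 of the 7, passed the filter through ChLO alone, with a WT mean of 4.49. The list's medians were 2.33, 1.65 and -0.22 above the WT mean, and its median difference was 1.06, or 2.07 without ChLO 3. The log2 of their summed signal reached 13.16 for ChLO 1 and 12.60 for ChLO 2 but 11.07 for ChLO 3, against 11.31 to 11.36 among WT arrays. Ccr2, the receptor of recruited monocytes, read 9.37, 8.14 and 6.48 in ChLO and 5.84 to 6.76 in WT, and Cx3cr1, another monocyte receptor, read 8.48, 6.78 and 5.50 in ChLO and 5.16 to 5.91 in WT. Itgax, an integrin of dendritic cells and some macrophages, differed by 1.06 (SE 0.43), and Lyz2, lysozyme, by 0.79 (SE 0.41). Itgam was below the filter level. Myeloid cells also express Vim and Thbs1, and the part of these cells in the results above was not tested.

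Markers of resident cells of the sinusoid had medians nearer 0. Of 8 Kupffer cell markers, 4 were higher and 4 lower, with a median of 0.02, medians by array of -0.26, 0.38 and -0.14 in ChLO, and a log2 sum of 13.62 to 14.23 in ChLO and 13.74 to 13.83 in WT. Cd163, a scavenger receptor, was lower by 0.94 (SE 0.36), while Cd5l differed by 0.35 (SE 0.26), Marco by 0.75 (SE 0.83) and Timd4 by -0.22 (SE 0.26). Of 9 sinusoidal endothelial markers, 6 were higher, with a median of 0.24 and a log2 sum of 13.44 to 13.85 in ChLO and 13.27 to 13.61 in WT. Fcgr2b, an Fc receptor of this endothelium, was higher by 0.60 (SE 0.23), Pecam1 by 0.54 (SE 0.28), Cdh5 by 0.30 (SE 0.24) and Stab2 by 0.24 (SE 0.17). Of the 9, 4 were above every WT array in ChLO 1 and 6 in ChLO 2, against 38.8% and 31.5% of all genes. Lyve1, also in this list, followed the matrix genes, reading 10.46, 10.28 and 8.05 in ChLO and 8.37 to 9.27 in WT. Its difference was 0.71 (SE 0.61), or 1.48 without ChLO 3. The list's median was 0.30 without ChLO 3, with 6 genes higher and 3 lower.

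Bile duct markers were mostly higher and hepatocyte markers lower. Of 6 cholangiocyte markers tested, 5 were higher with a median of 0.42, or 0.72 without ChLO 3. Their summed signal was mostly that of Cdh1, which made up 79.4% to 94.4% of it by array. Without Cdh1 its log2 was 10.58 for ChLO 1, 9.52 for ChLO 2 and 8.47 for ChLO 3, against 7.75 to 8.54 among WT arrays. Cldn4, which passed the filter through ChLO alone, is in this sum and in the count of 5. It read 9.95, 8.09 and 6.33 in ChLO 1, 2 and 3, so the sum is given as a description. Krt19, the defining keratin, read 6.15, 6.30 and 5.91 in ChLO and 5.21 to 5.68 in WT, and Krt7, another duct keratin, differed by -0.12 (SE 0.67). Cldn4, a tight junction protein, differed by 2.74 (SE 0.85), but its WT mean of 5.38 is under the filter level and it passed through ChLO alone. Epcam differed by 0.89 (SE 0.51) and Cdh1 by 0.21 (SE 0.28). All 9 hepatocyte markers tested were lower, with a median of -0.30 and a log2 sum of 18.38 to 18.66 in ChLO and 18.71 to 18.95 in WT. These differences depend on the scaling of the arrays. Scaling to the spike-in controls moved the median of all genes from 0.06 to 0.31, a shift near the size of this list's median. For 7 of the 9 the groups did not overlap, against 6.19% of all genes with ChLO lower, as for Col18a1 and Fn1. Apob was lower by 0.43 (SE 0.19), Hnf4a by 0.36 (SE 0.18), Serpina1c by 0.36 (SE 0.19) and Cps1 by 0.36 (SE 0.22). Of 2 lymphocyte markers tested, Cd8a differed by -0.54 (SE 0.38) and Ms4a1 by 0.19 (SE 0.46). The part of these cell types in the results above was not tested.

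**Figure D5:**
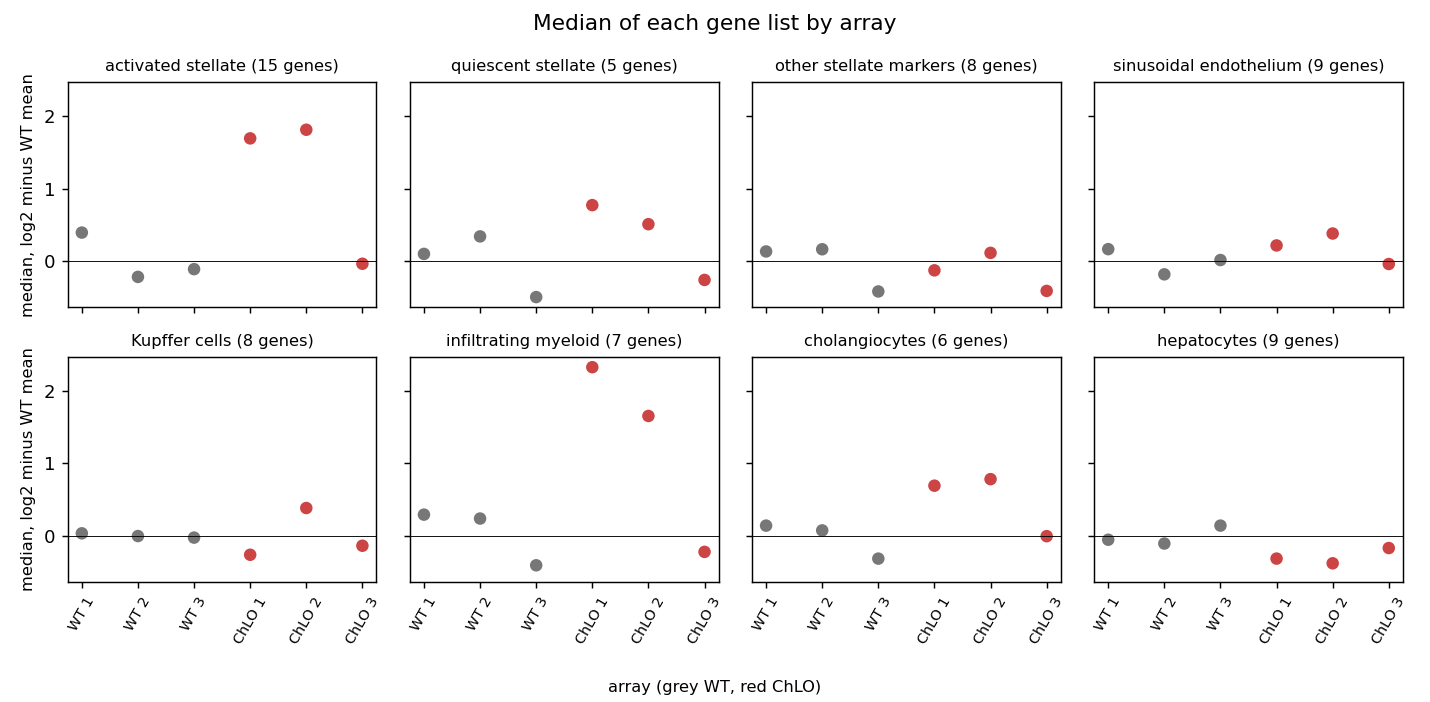
Median of each gene list on each array (vertical axis, log2 signal minus the WT mean; horizontal axis, array, with WT in grey and ChLO in red). The activated stellate and infiltrating myeloid lists stand at 1.65 or more in ChLO 1 and ChLO 2 and at -0.03 and -0.22 in ChLO 3, whereas the other stellate markers, sinusoidal endothelium and Kupffer cell lists stay within 0.42 of 0 on every array.

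The Actb control probe sets report how far labelling reached from the 3′ end. Their 3′ signal exceeded the 5′ signal by 0.84 in ChLO 1, by 1.03 in ChLO 2 and by 1.46 in ChLO 3, while WT arrays ranged from 1.13 to 1.38. Hybridization controls averaged 12.34 in ChLO 1, 12.23 in ChLO 2 and 12.52 in ChLO 3, against 12.57 to 12.65 among WT arrays. Both measures were lowest in ChLO 1 and ChLO 2, the arrays in which the matrix genes read high. The Gapdh control, read as 3′ minus 5′ signal in the same way, was lowest in WT 1, at -0.31. WT 3 had its highest value, -0.13. Every ChLO array lay between these, with ChLO 1 at -0.25, ChLO 2 at -0.20 and ChLO 3 at -0.14. The part of labelling and hybridization in the result was not tested. Scaled to the hybridization controls, the median of the 40 genes was 0.98, where that of all genes was 0.31. The gap of 0.67 was the same without that scaling. It could not differ, since the scaling moves every gene on an array by the same amount.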

How the data were processed

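The authors deposited 1 table of log2 signals, 45101 probe sets on each of 6 arrays. Per the submitters' processing notes, MAS5 was used, a method that summarises each array alone; no version is given. The deposited values, back on the linear scale, have a mean of 500 on every array after 2% is trimmed from each end, so all arrays had been set to 1 average, which hides any shift common to most genes. Detection calls were not used here.

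Probe sets were named through the platform annotation (34945 with 1 symbol, 932 with several, 9160 with none). The 64 control probe sets were left out, then those whose mean log2 signal was below the 40th percentile, 5.50. The brightest probe set of each gene was kept. ChLO and WT were compared with limma 3.58.1 in R 4.3.3 (lmFit, eBayes with a mean-variance trend), Benjamini-Hochberg adjusted over all 12598 genes, with a threshold of 0.05. SE is limma's moderated standard error, and p-values measure the spread between mice. The fit was tested on simulated data. The genes and lists were chosen with earlier results of these data known. The text names Mlxipl, all 43 genes and, of each other list, up to 4 genes with the smallest p. Dim marker genes named as below the filter level, Gpnmb, Krt7 and Lyve1 were added after their values were seen.

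Alternatives were quantile normalization, equal medians, spike-in scaling, no filter or the 60th percentile, no trend, array weights, the mean of a gene's probe sets, exclusion of probe sets matching several transcripts, a block for the replicate number, and leaving out each array. The resting list without Des was added after seeing the data. The deviations of same-numbered arrays correlated at 0.30, -0.17 and 0.06 for replicates 1, 2 and 3, with no common sign. The numbers were treated as names only, and the block for them is among the alternatives.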

Additional observations from a re-analysis of the deposited data

How the results depend on the processing

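These results rest on 3 mice a group, and single arrays moved the counts. The median difference of the 40 genes, of the activated list and of the resting list kept its sign under every alternative run, the resting list without Des (0.36) among them. Each moved by less than the pooled SD within groups of its medians by array, which was 0.54, 0.77 and 0.49. ChLO 3 widens that SD, so the bar is loose. With an array left out, the 3 medians ran from 0.55 to 1.06, from 0.82 to 1.84 and from 0.06 to 0.80. Genes called over all genes numbered 0, but 3 with no filter, 3 without probe sets that can match several transcripts, 1 with the replicate block and 568 with array weights, and from 0 to 302 when an array was left out, the highest without ChLO 3. Of the 40 genes, array weights called 15 and leaving out an array called 0 to 13. The fit with array weights gave ChLO 2 a weight of 4.58 and ChLO 3 a weight of 0.37, and its estimation stopped before convergence. Those higher at an unadjusted p under 0.05, 10 in the report, numbered 17 with spike-in scaling, 5 with no mean-variance trend, 29 with array weights and 18 with the replicate block, and 1 to 24 when an array was left out (1 without ChLO 2, 2 without ChLO 1, 4 without WT 3, 5 without WT 2). Genes with no overlap between groups numbered 4, and 4 to 30 when an array was left out, fewer arrays making overlap less likely. Of all genes at an unadjusted p under 0.05, 60.9% were higher in ChLO, and 91.3% were with spike-in scaling, which moved the median of all genes to 0.31. The cause of these changes was not tested.

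Small differences changed sign. Eln was -0.07 without WT 3 and ranged from -0.13 without ChLO 2 to 0.34 without ChLO 1. Efemp1 was 0.20 with spike-in scaling, 0.25 with array weights, 0.03 without WT 2, and ranged from -0.24 without ChLO 2 to 0.16 without ChLO 1. Dcn was -0.17 as the mean of its probe sets. Thbs2 was 0.0032 with quantile normalization, 0.24 with spike-in scaling, 1.00 with array weights, 0.31 without WT 3, and ranged from -0.71 without ChLO 2 to 0.86 without ChLO 3. Ecm1 was -0.12 without ChLO 2 and ranged from -0.16 without WT 3 to 0.21 without WT 2. Tgfb1 was -0.10 as the mean of its probe sets, -0.14 without WT 2 and -0.01 without ChLO 2, and ranged from -0.25 without ChLO 1 to 0.80 without ChLO 3. The other 34 genes tested kept their direction in every alternative that gave them a value. Mlxipl kept its direction and was called without ChLO 3 and with array weights.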
